A study of Mus musculus with 12 samples.

Results

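The granulocyte granule genes measured here were 10 genes, Mpo, Elane, Prtn3, Ctsg, Ngp, Camp, Ltf, Cebpe, Retnlg and Ly6g, taken by symbol from the 18996 genes of the count table. All 10 were found, and all 10 passed the filter on low counts that left 14765 genes for testing. RNA sequencing was performed on tissue along the spine of 12 BALB/c mice, 5 to 7 weeks old and with no allele or agent named, in 3 groups of 4. The No operation group gave intact paraspinal soft tissue, the SHAM group gave soft and scar tissue after an operation that left the laminae in place, and the Laminectomy group gave soft and scar tissue after the T12-L2 laminae were excised. Tissue was collected on day 7 after surgery. The comparisons address what spinal canal exposure adds to a soft tissue wound, and here how far granulocyte genes followed the operation.

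Neutrophils are made in the bone marrow from promyelocytes, and their granules are filled in a fixed order. Primary granules receive myeloperoxidase and the serine proteases while the cell still divides, and specific granules receive lactoferrin and cathelicidin in the myelocyte, under control of the transcription factor C/EBP epsilon. RNA for these granule proteins falls sharply before the neutrophil enters blood, so circulating neutrophils carry the proteins with little of the messenger RNA. Retnlg and Ly6g, a resistin-like secreted protein and a surface antigen, are not granule proteins and come on late, and mature neutrophils still express Retnlg strongly. In bulk tissue, fewer cells of a type and less RNA per cell cannot be told apart.

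Promoters are shown because the 10 genes moved together between mice, as described below. RefSeq windows of 300 bases (250 before to 50 after the start site, GRCm38.p6) were matched for 9 of the 10 genes, without Cebpe. The motifs searched on both strands were TTGCNNAA for C/EBP factors, GAGGAA for PU.1 and TGTGGT for RUNX factors. Capitals mark every match in either direction, and no matches overlapped in the windows printed. Mpo and Elane stand for primary granules, Ngp and Ltf for specific granules and Retnlg for the late genes.
Mpo, chr11:87793534-87793833, + strand: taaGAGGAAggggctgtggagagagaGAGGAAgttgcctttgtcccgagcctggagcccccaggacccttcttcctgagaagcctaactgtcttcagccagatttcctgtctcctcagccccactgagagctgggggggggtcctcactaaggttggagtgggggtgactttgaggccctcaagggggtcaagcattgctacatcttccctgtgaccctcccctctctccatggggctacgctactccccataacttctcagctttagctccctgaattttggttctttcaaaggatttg
Elane, chr10:79886062-79886361, + strand: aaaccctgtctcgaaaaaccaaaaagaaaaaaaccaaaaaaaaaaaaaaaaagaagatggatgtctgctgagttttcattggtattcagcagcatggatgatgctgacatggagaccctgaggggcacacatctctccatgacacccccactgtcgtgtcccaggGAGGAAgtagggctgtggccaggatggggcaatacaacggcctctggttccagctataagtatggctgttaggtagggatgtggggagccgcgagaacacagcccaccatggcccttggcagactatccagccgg
Ngp, chr9:110419558-110419857, + strand: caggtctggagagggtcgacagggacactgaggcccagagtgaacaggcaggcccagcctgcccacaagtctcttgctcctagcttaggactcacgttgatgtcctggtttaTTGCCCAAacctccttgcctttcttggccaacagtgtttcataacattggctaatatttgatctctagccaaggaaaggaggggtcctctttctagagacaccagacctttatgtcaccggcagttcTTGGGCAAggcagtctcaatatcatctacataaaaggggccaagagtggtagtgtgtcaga
Ltf, chr9:111019042-111019341, + strand: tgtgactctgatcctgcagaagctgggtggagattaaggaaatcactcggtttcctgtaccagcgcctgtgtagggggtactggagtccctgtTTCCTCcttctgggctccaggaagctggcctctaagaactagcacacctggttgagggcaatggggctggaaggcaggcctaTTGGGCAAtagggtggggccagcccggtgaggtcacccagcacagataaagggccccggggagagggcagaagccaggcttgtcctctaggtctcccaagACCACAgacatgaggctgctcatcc
Retnlg, chr16:48872358-48872657, + strand: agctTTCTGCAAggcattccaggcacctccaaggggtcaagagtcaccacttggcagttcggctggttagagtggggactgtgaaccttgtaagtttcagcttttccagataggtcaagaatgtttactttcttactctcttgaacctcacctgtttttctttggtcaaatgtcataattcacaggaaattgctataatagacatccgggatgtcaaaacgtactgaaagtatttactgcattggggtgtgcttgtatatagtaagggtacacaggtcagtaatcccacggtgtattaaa
GAGGAA was found in 6 of the 9 promoters (Mpo, Elane, Prtn3, Ctsg, Ltf and Ly6g), beside 28.3% of the 32851 promoters of this length. TTGCNNAA was found in 4 of 9 (Ngp, Ltf, Retnlg and Ly6g), beside 10.8%, and TGTGGT in 2 of 9 (Ctsg and Ltf), beside 16.8%. All 4 primary granule promoters held GAGGAA without TTGCNNAA. Ly6g has 2 start sites in RefSeq, of which the first was counted, and the window of the second held GAGGAA without TTGCNNAA. A match is a description of letters and not a site of binding.

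Library totals ran from 16802988 to 18077863 counts, so depth differed little between mice. Levels are given as CPM (counts scaled to a common library size) on library sizes scaled by the TMM method. The tissue matched its labels for muscle: the summed level of 8 skeletal muscle genes lay between 70125 and 110425 CPM without operation, 1514 and 6851 CPM after SHAM surgery and 2334 and 10284 CPM after Laminectomy.

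Among the primary granule genes, Mpo (gene 17523, chr11:87793581-87804413, + strand, GRCm38) encodes myeloperoxidase, which makes hypochlorous acid. Values are given in the order of mice 1 to 4 of each group. Mpo stood at 0.896, 356, 116 and 2.10 CPM in the unoperated mice 1 to 4, 0.0562, 6.85, 28.8 and 82.5 CPM after SHAM surgery and 35.9, 123, 262 and 34.7 CPM after Laminectomy. No operation mice 2 and 3 were high while mice 1 and 4 of the same group were near 0, and the 3 groups overlapped. In GENCODE vM21 the exons of Mpo share 512 bases with Gm11505 on the opposite strand. Gm11505 is not among the genes of the count table. The study's methods name default settings for counting, which do not use strand. How reads from that stretch were assigned is not given, so some may come from Gm11505. SHAM mouse 1 held a single Mpo count, and No operation mouse 2 held 5661. Within the untreated group alone, the highest mouse was 398-fold above the lowest.

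Elane (chr10:79886247-79888215, + strand) encodes neutrophil elastase, the serine protease whose mutation causes inherited neutropenia. Its level was 0.689, 100, 34.3 and 0.421 CPM in the unoperated mice 1 to 4, 0.0562, 2.46, 7.52 and 26.4 CPM after SHAM surgery and 10.4, 39.4, 84.0 and 11.7 CPM after Laminectomy. The order of the mice was close to that for Mpo. Prtn3, encoding proteinase 3 and lying next to Elane (chr10:79874476-79883174, + strand), was at 2.48, 76.5, 25.5 and 2.17 CPM in the unoperated mice, 1.40, 4.76, 7.68 and 22.4 CPM after SHAM surgery and 12.97, 26.7, 58.0 and 13.2 CPM after Laminectomy. Prtn3 kept the same high mice but did not fall as near to 0 in the low ones. Its exons share 159 bases with Plppr3 on the opposite strand, and how reads from that stretch were assigned is likewise not given. Ctsg, the gene of cathepsin G (chr14:56099881-56102574, - strand), reached 0.207, 32.1, 11.4 and 0.210 CPM in the unoperated mice, 0.0562, 0.802, 2.91 and 10.04 CPM after SHAM surgery and 3.92, 12.6, 27.2 and 5.21 CPM after Laminectomy. Both low No operation mice had 3 Ctsg counts each.

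Of the specific granule genes, Ngp (chr9:110419747-110423012, + strand), encoding neutrophilic granule protein, had the highest level per length, with a mean of 288 CPM per kb of exon over the 12 mice. Its level was 11.1, 1429, 516 and 10.9 CPM in the unoperated mice 1 to 4, 2.02, 29.3, 66.0 and 272 CPM after SHAM surgery and 113, 669, 953 and 152 CPM after Laminectomy. No operation mouse 2 lay above every Laminectomy mouse, No operation mouse 3 lay between Laminectomy mice 2 and 4, and all 4 Laminectomy mice lay above 3 of the 4 SHAM mice. Camp, encoding the antimicrobial cathelicidin (chr9:109847379-109849617, - strand), was at 1.65, 236, 101 and 1.26 CPM in the unoperated mice, 0.899, 8.13, 9.59 and 49.4 CPM after SHAM surgery and 25.8, 118, 175 and 33.1 CPM after Laminectomy. Ltf, encoding the iron-binding lactoferrin (chr9:111019271-111042767, + strand), was at 7.10, 783, 281 and 5.12 CPM in the unoperated mice, 0.506, 13.4, 40.8 and 156 CPM after SHAM surgery and 67.8, 396, 529 and 68.6 CPM after Laminectomy. For all 3 genes SHAM mouse 1 was the lowest of the 12.

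Cebpe (chr14:54710360-54712174, - strand), the regulator of the specific granule program, was the least abundant per length, with a mean of 3.24 CPM per kb. It stood at 0.482, 16.3, 5.99 and 0.140 CPM in the unoperated mice, 1.24, 1.07, 0.635 and 3.20 CPM after SHAM surgery and 2.12, 5.71, 9.53 and 1.77 CPM after Laminectomy. The same No operation mice were high, but SHAM mouse 1 was not the lowest of its group here. Of the late genes, Ly6g (chr15:75155240-75159126, + strand), a surface antigen used to identify mouse neutrophils, was at 0.0689, 14.1, 5.53 and 0.0701 CPM in the unoperated mice, 1.24, 1.02, 1.32 and 4.16 CPM after SHAM surgery and 1.38, 8.23, 11.4 and 2.66 CPM after Laminectomy. Ly6g belongs to a family of similar genes, and both low No operation mice had 1 count each. Retnlg (chr16:48872621-48874496, + strand) was at 2.48, 86.7, 33.8 and 0.701 CPM in the unoperated mice, 35.2, 8.13, 16.9 and 29.0 CPM after SHAM surgery and 9.58, 57.1, 99.3 and 19.0 CPM after Laminectomy. Retnlg was the exception among the 10 genes, since SHAM mouse 1, near 0 for Mpo, was the highest SHAM mouse for it.

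**Figure D1:**
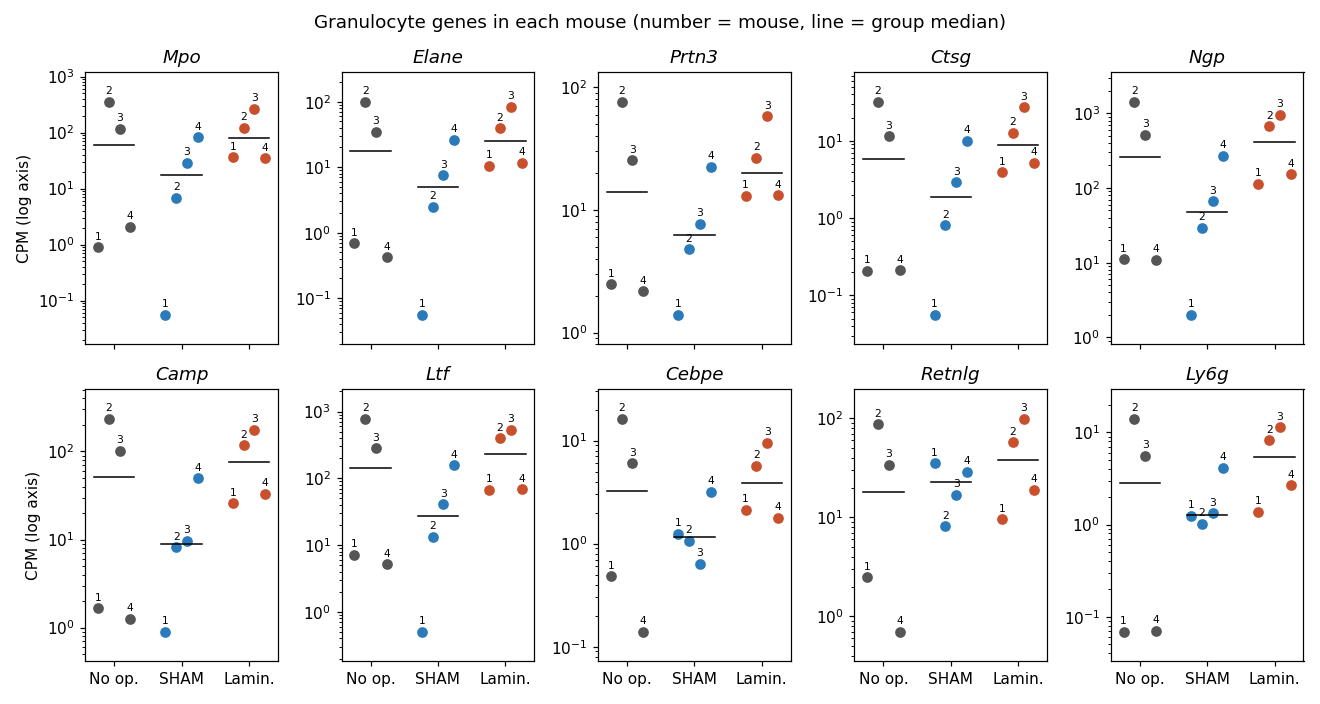
Level of each of the 10 genes (CPM, log axis) in 12 mice, with 1 point per mouse, the mouse number above it and a line at the group median. No operation mice 2 and 3 lie above Laminectomy mice 1 and 4 in every panel, and No operation mice 1 and 4 are among the last 4 mice in every panel.

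The mean level per kb of exon over the 12 mice ordered the genes as Ngp (288 CPM per kb), Camp (83.5), Ltf (56.7), Retnlg (55.9), Elane (26.9), Mpo (25.5), Prtn3 (12.2), Ctsg (8.61), Ly6g (4.53) and Cebpe (3.24). Ltf and Retnlg, and likewise Elane and Mpo, stood next to each other with means that differed by far less than the spread between mice. Ngp headed this order in each of the 3 groups, with means of 403, 75.5 and 386 CPM per kb in No operation, SHAM and Laminectomy mice. The order below it differed by group: Retnlg was next after Ngp in SHAM mice, at 37.6 CPM per kb against 22.4 for Camp and 15.2 for Ltf, whereas Camp was next in No operation mice, at 112, and in Laminectomy mice, at 116. Retnlg lay below Ltf in No operation mice, at 52.1 against 78.0, and beside it in Laminectomy mice, at 78.0 against 76.9. Together the 10 genes took 0.00196% of the counts in No operation mouse 4 and 0.294% in No operation mouse 2.

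No member was called in any of the 3 comparisons by edgeR's quasi-likelihood test, at an adjusted p below 0.05 and a log2 fold change beyond 0.5. None of the 10 reached an unadjusted p below 0.05 in these fits either, and DESeq2 called none. The background differed by comparison. In SHAM against No operation, 25.7% of all genes tested were called higher and 25.1% lower, 65.7% had an unadjusted p below 0.05, and DESeq2 called 52.1%. In Laminectomy against No operation the shares were 24.2% higher, 24.4% lower, 64.0% at an unadjusted p below 0.05 and 49.8% by DESeq2. In Laminectomy against SHAM, edgeR called 0% higher and 0% lower, 16.0% had an unadjusted p below 0.05, and DESeq2 called 4.08%. Read against these shares, 0 of 10 members lay below the background in both comparisons with No operation. In Laminectomy against SHAM it equalled the share called by edgeR and lay below the other 2 shares.

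In SHAM against No operation, all 10 fitted log2 fold changes were below 0, with a median of -1.90 beside -0.00 over all genes tested. Ngp had a log2 fold change of -2.42 (SE 1.55, edgeR adjusted p = 0.195), Mpo -2.01 (SE 1.60, adjusted p = 0.293) and Cebpe -1.90 (SE 1.09, adjusted p = 0.149, the smallest of the 10). Retnlg was nearest to 0, at -0.47 (SE 1.10, adjusted p = 0.726). The sign for Retnlg and Ly6g depended on the average taken. On the mean of log2 CPM per mouse, SHAM mice lay 1.13 above No operation mice for Retnlg and 0.45 above for Ly6g, with No operation mice 1 and 4 the lowest of the 12 for both genes. A two-sided exact permutation test on log2 CPM gave p between 0.486 and 0.829 over the 10 genes, where the smallest p that 4 against 4 mice allow is 0.0286.

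In Laminectomy against No operation, the fitted differences lay near 0 with wide errors. Mpo had a log2 fold change of -0.06 (SE 1.54, adjusted p = 0.975 by edgeR), Ngp -0.06 (SE 1.47, adjusted p = 0.976), Elane 0.10 (SE 1.40, adjusted p = 0.956) and Retnlg 0.58 (SE 1.09, adjusted p = 0.670, the smallest). Of the 10 genes 6 were above 0 and 4 below, with a median of 0.05 beside 0.01 over all genes. On plain library totals, without the scaling factors, 9 were above 0 and the median of all genes moved to 0.33, beside 0.31 for the members. The mean of log2 CPM was higher in Laminectomy mice for all 10 genes, by 2.19 for Mpo and 1.73 for Ngp, and exact permutation p ran from 0.343 to 0.514. Standard errors of this size leave room for a difference of several fold in either direction.

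In Laminectomy against SHAM, all 10 log2 fold changes were above 0, with a median of 1.88 beside 0.00 over all genes. Camp was at 2.37 (SE 1.44, edgeR adjusted p = 0.440, the smallest), Ltf at 2.33 (SE 1.59, adjusted p = 0.494), Mpo at 1.95 (SE 1.60, adjusted p = 0.573) and Retnlg at 1.05 (SE 1.10, adjusted p = 0.660). The exact permutation p was lowest for Camp, at 0.0857, and highest for Retnlg, at 0.429. For all 10 members the groups overlapped in each of the 3 comparisons. Over all genes tested, the groups did not overlap for 54.5% in SHAM against No operation, 56.0% in Laminectomy against No operation and 10.1% in Laminectomy against SHAM. The comparisons share mice, so their values stand side by side and are not independent of each other.

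**Figure D2:**
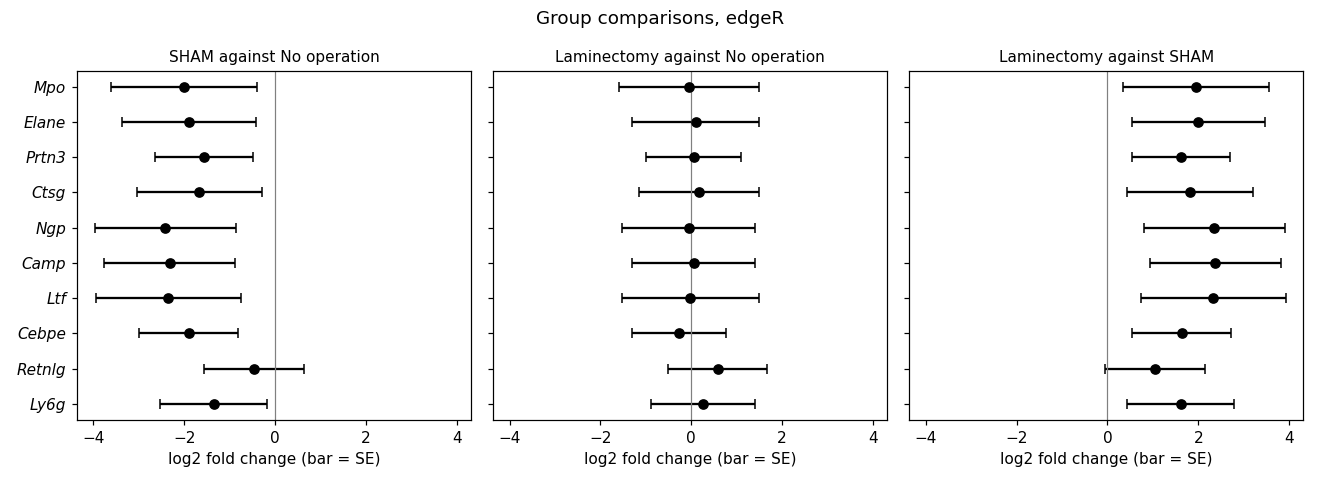
Fitted log2 fold change of each gene in the 3 comparisons (edgeR, 4 mice per group), with bars of 1 SE. All 10 points lie below 0 in SHAM against No operation and above 0 in Laminectomy against SHAM, none passed the test, and without No operation mouse 2 Retnlg and Ly6g turn above 0 in the first panel.

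Leaving out 1 mouse at a time called no member in any comparison, but it moved the directions. Without No operation mouse 2, the highest of its group for all 10 genes, 2 genes were above 0 and 8 below in SHAM against No operation, with a median of -0.40, and all 10 were above 0 in Laminectomy against No operation, with a median of 1.49. Without Laminectomy mouse 3, all 10 were below 0 in Laminectomy against No operation, with a median of -0.60. Without SHAM mouse 4, the median was -3.21 in SHAM against No operation and 3.26 in Laminectomy against SHAM. In the other direction, the median in Laminectomy against SHAM was 1.10 without Laminectomy mouse 3, with all 10 still above 0. The smallest adjusted p for a member under any alternative was 0.0575, for Cebpe in SHAM against No operation without No operation mouse 4.

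The spread between mice of 1 group was the main property of these genes. The SD of log2 CPM within groups was 3.40 for Mpo, the largest of all 14765 genes tested, 3.03 for Ltf (place 4), 2.95 for Elane (place 8) and 2.85 for Ngp (place 11). Camp (2.71), Ctsg (2.57), Ly6g (2.12) and Retnlg (2.08) were also among the first 100 genes, and Cebpe and Prtn3, each at 1.82, took places 118 and 121. The median over all genes tested was 0.24. The spread was wide in No operation mice, where the SD of log2 CPM was 4.17 for Mpo and 3.67 for Ngp, and narrower in Laminectomy mice, at 1.42 and 1.53. In SHAM mice it was 3.90 for Mpo and 2.94 for Ngp, but 0.90 for Cebpe, 0.94 for Retnlg and 0.87 for Ly6g, below the 1.12, 1.52 and 1.38 of Laminectomy mice, so the order of the groups differed by gene. The differences in spread were not tested. In linear terms the highest Laminectomy mouse was 7.53-fold above the lowest for Mpo and 8.43-fold for Ngp, beside 398-fold and 132-fold in No operation mice.

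**Figure D3:**
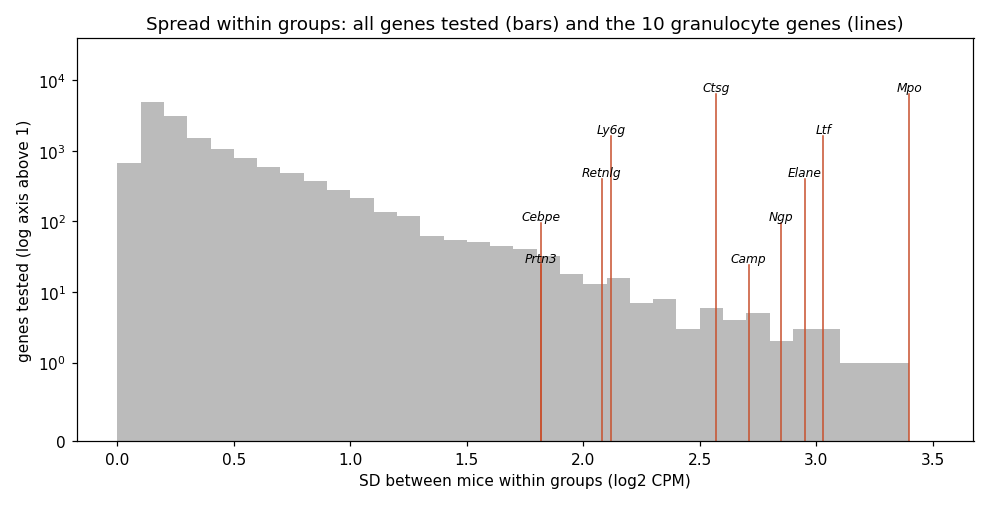
SD of log2 CPM between mice within groups, as a histogram of all 14765 genes tested (log axis above 1), with a line for each of the 10 genes. The bulk of genes lies near the median of 0.24, and the 10 genes lie between 1.82 and 3.40.

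The 10 genes varied together across mice. No operation mouse 2 held the highest level of all 12 mice for 9 of the 10 genes and the next highest for the other, Retnlg, for which Laminectomy mouse 3 was first. Laminectomy mice 2 and 3 were among the first 4 mice for all 10 genes, and No operation mice 1 and 4 were among the last 4 for all 10. Over the 12 mice, the Pearson correlation of log2 CPM with Mpo was 0.99 for Elane, Ngp and Ltf, 0.98 for Ctsg, 0.97 for Prtn3 and Camp, 0.81 for Ly6g, 0.78 for Cebpe and 0.61 for Retnlg. Spearman's rho was 0.99 for the first 6 of these, 0.95 for Ly6g, 0.91 for Cebpe and 0.71 for Retnlg. Without the 2 mice farthest from the median Mpo level, No operation 1 and SHAM 1, all 9 values of r were between 0.95 and 1.00. With the group means removed, r was 0.99 for Ngp, 0.74 for Cebpe and 0.63 for Retnlg. These correlations are given as descriptions over the same 12 libraries.

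Ratios to Mpo were taken in the 11 mice with at least 10 Mpo counts, which leaves out SHAM mouse 1. That mouse had 1 count each of Mpo, Elane and Ctsg. It had 36 of Ngp, 25 of Prtn3, 22 of Cebpe, 627 of Retnlg, 16 of Camp, 9 of Ltf and 22 of Ly6g. All 9 ratios to Mpo there were above the ranges of the other mice, but its Mpo count was too low for a ratio to be read. In the 11 mice all 9 ratios spanned between 2.57-fold and 24.4-fold, while Mpo itself spanned 398-fold. The ratio of Ctsg to Mpo counts had a median of 0.104 and spanned 2.57-fold, and that of Elane had a median of 0.32 and spanned 3.85-fold. The ratio of Ngp had a median of 4.27, with a low of 2.30 in SHAM mouse 3 and a high of 12.4 in No operation mouse 1. Wider ranges were seen for Cebpe (24.4-fold), Prtn3 (12.9-fold) and Retnlg (11.4-fold), each with its highest ratio in No operation mouse 1, where Mpo had 13 counts. Retnlg had 17.4 counts for each Ngp count in SHAM mouse 1, and between 0.0607 and 0.278 in the other 11 mice.

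**Figure D4:**
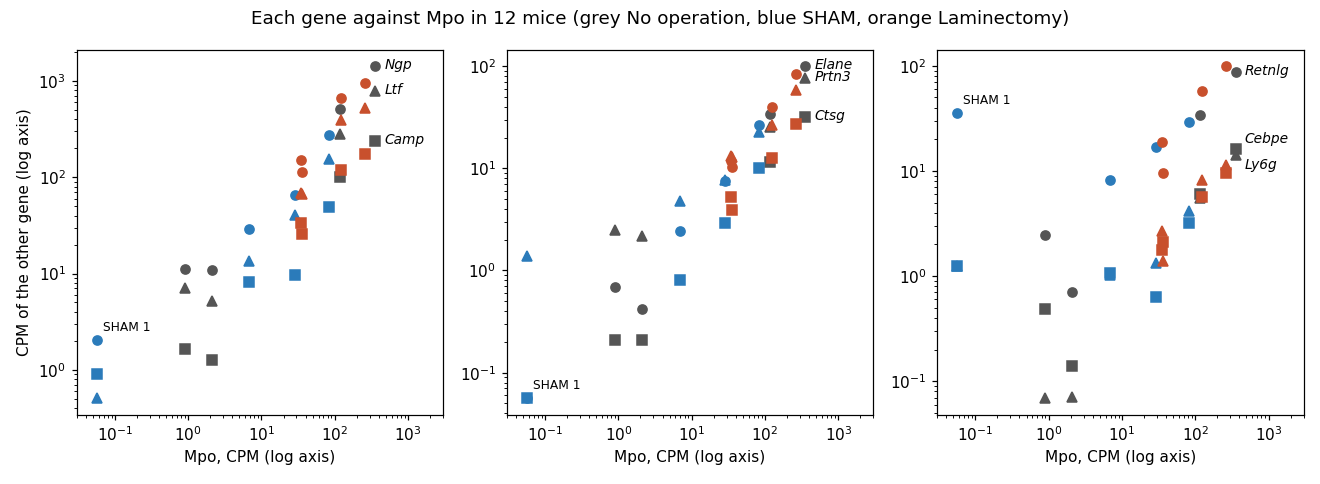
Level of each of the other 9 genes against Mpo (CPM, log axes) in 12 mice, coloured by group. Elane, Ctsg, Ngp and Ltf are lowest in SHAM mouse 1 as Mpo is, Camp and Prtn3 fall less at the low end, to 0.899 and 1.40 CPM in that mouse against 1.26 and 2.17 CPM in No operation mouse 4, and Retnlg in SHAM mouse 1 reaches 35.2 CPM at 0.0562 CPM of Mpo.

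Further genes of immature granulocytes behaved in part like the members. Of 13 such genes, edgeR called 1 higher (Anxa3) and 1 lower (Orm1) in SHAM against No operation, below the 25.7% and 25.1% of all genes. It called 0 higher and 1 lower (Orm1) in Laminectomy against No operation, below the 24.2% and 24.4%. Ms4a3, a gene of granulocyte and monocyte progenitors, was at 0.0689, 18.7, 7.06 and 0.140 CPM in the unoperated mice, 0, 0.642, 1.59 and 4.38 CPM after SHAM surgery and 2.44, 6.43, 14.8 and 2.76 CPM after Laminectomy, which is the pattern of Mpo. The 4 most abundant of the 13 were less close: with group means removed, r with Mpo was 0.63 for Lcn2 (lipocalin 2), 0.58 for Chil3, -0.23 for Hp (haptoglobin) and -0.55 for Anxa3. Leaving out 1 mouse moved the count in SHAM against No operation to 4 without No operation 1 and to 1 without SHAM 1.

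Of 24 genes of mature neutrophils, edgeR called 13 higher and 1 lower in SHAM against No operation, beside 25.7% higher and 25.1% lower of all genes, with a median log2 fold change of 2.17 beside -0.00. After Laminectomy, against No operation, it called 10 higher and 1 lower, beside 24.2% and 24.4%, with a median of 1.25 beside 0.01. Both directions together, the called share of the list was near that of all genes in each comparison. Il1b, the inflammatory cytokine, had a log2 fold change of 5.17 (SE 0.81, edgeR adjusted p = 0.000214) in SHAM mice and 3.77 (SE 0.76, adjusted p = 0.00137) in Laminectomy mice. Mmp9, the gelatinase of tertiary granules and the most abundant of the list, was called higher in Laminectomy mice at 2.65 (SE 0.97, adjusted p = 0.0329). In SHAM mice Mmp9 was not called, at 1.33 (SE 0.92, edgeR adjusted p = 0.229). S100a8 and S100a9, which encode calprotectin, were not called, and in No operation mouse 2 they reached 562 and 914 CPM against 3.93 and 6.38 CPM in No operation mouse 4. The count in Laminectomy against No operation was 18 without No operation 2, and 6 without No operation 1, without No operation 3 or without Laminectomy 1. The count in SHAM against No operation stayed between 11 and 18.

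Retnlg was compared with Mpo as the reference for these lists. With group means removed, all 24 mature neutrophil genes had a higher r with Retnlg than with Mpo, with a median of 0.80 against 0.39, and so did 11 of the 13 immature granulocyte genes, with a median of 0.90 against 0.68. A higher r with Retnlg was not particular to neutrophil genes, since it was also found for all 10 monocyte and macrophage genes, with a median of 0.09 against -0.39, and all 4 mast cell protease genes, with a median of 0.00 against -0.44. Of the 24, 16 were highest of all mice in SHAM mouse 1, among them Cxcr2, the chemokine receptor that guides neutrophils out of the marrow, at 89.2 CPM, and Fpr1, the formyl peptide receptor, at 95.1 CPM. This peak was not particular to neutrophil genes, since 7 of the 10 monocyte and macrophage genes were also highest of all mice in SHAM mouse 1. The same mouse had 0.0562 CPM of Mpo, Elane and Ctsg. In No operation mouse 2, where the members peaked, Cxcr2 was at 36.0 CPM and Fpr1 at 7.81 CPM. Others of the 24 went the other way, since 5 were highest of all mice in No operation mouse 2. Among these was S100a9, at 914 CPM there against 364 CPM in SHAM mouse 1.

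Among 10 transcription factors of granulocyte development, 4 were called higher (Spi1, Runx1, Irf8 and Cebpb) and 0 lower in SHAM against No operation, beside 25.7% and 25.1% of all genes. In Laminectomy against No operation, 3 were called higher (Spi1, Runx1 and Irf8) and 2 lower (Cebpa and Cebpd), beside 24.2% and 24.4%. In both directions together, the called share of the list was not above that of all genes in the first comparison and near it in the second. Spi1, which encodes PU.1, had log2 fold changes of 2.23 (SE 0.37, edgeR adjusted p = 0.000318) and 1.83 (SE 0.36, adjusted p = 0.00121). Only Gfi1 and Myb of the 10 had an r with Mpo above 0.8 with group means removed, each at 0.89. The median was 0.21, and Cebpb (-0.83), Cebpd (-0.57), Cbfb (-0.18) and Runx1 (-0.12) were below 0. Gfi1, a repressor needed for neutrophil formation, was not called and stood at 0.207, 7.75, 3.46 and 0.210 CPM in the unoperated mice and 5.75 CPM in Laminectomy mouse 3. Myb, a factor of dividing progenitors, was likewise not called and reached 38.6 CPM in No operation mouse 2 and 0.841 CPM in No operation mouse 4. Without No operation 1 the count in SHAM against No operation was 6.

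Many genes of other blood lineages formed in marrow varied with the members, and some did not. With group means removed, the median r with Mpo was 0.90 over 19 erythroid genes, 0.83 over 8 eosinophil and basophil granule genes, 0.76 over 10 genes of marrow B cell precursors and 0.72 over 8 megakaryocyte and platelet genes, beside -0.04 over all genes tested. An r above 0.8 was reached by 12 of the 19 erythroid genes, 6 of the 8 eosinophil and basophil genes, 4 of the 10 B cell precursor genes, 3 of the 8 megakaryocyte and platelet genes and 1.58% of all genes. The r was -0.65 for Pf4, platelet factor 4, 0.44 for Ppbp, another platelet chemokine, and 0.42 for Ear2 and for Sptb. Slc4a1, the anion exchanger of red cells and the erythroid gene with the highest r, 0.99, was at 1.24, 323, 133 and 2.73 CPM in the unoperated mice, 0.281, 6.21, 16.8 and 33.7 CPM after SHAM surgery and 34.3, 90.1, 193 and 16.3 CPM after Laminectomy. Epx, the eosinophil peroxidase, was at 26.1 CPM in No operation mouse 2 and had no count in No operation mice 1 and 4. Their part in the result for the members was not tested.

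The erythroid sum ran from 1130 to 5742 CPM without operation, 661 to 1226 CPM after SHAM surgery and 1144 to 7005 CPM after Laminectomy. It did not follow the members in every mouse: the highest erythroid sum was in Laminectomy mouse 1, which had the lowest member sum of its group, 283 CPM. The hemoglobin genes made up most of that sum, with Hbb-bs at 2895 CPM in Laminectomy mouse 1 and 1959 CPM in No operation mouse 2. The eosinophil and basophil sum ran from 4.35 to 139 CPM without operation, 3.37 to 12.9 CPM after SHAM surgery and 3.02 to 60.9 CPM after Laminectomy. The B cell precursor sum, largely Ebf1, ran from 64.4 to 146, 63.9 to 84.2 and 69.0 to 80.9 CPM in the same order of groups. The megakaryocyte and platelet sum ran from 25.5 to 168, 183 to 573 and 145 to 261 CPM, of which Pf4 alone made up 458, 195, 144 and 204 CPM after SHAM surgery against 44.8, 20.8, 27.4 and 19.4 CPM without operation. No gene of these 4 lists was at 0 in all mice of any group.

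In SHAM against No operation, edgeR called 3 of 19 erythroid genes lower (Hbb-bt, Alas2 and Sptb, of which Sptb is also a muscle spectrin), 3 of 10 B cell precursor genes lower (Pax5, Cd79a and Rag1), 1 of 8 eosinophil and basophil genes lower (Ear6) and 1 of 8 megakaryocyte and platelet genes higher (Pf4). These counts stand beside 25.1% of all genes called lower and 25.7% called higher, and the share of B cell precursors was near that background and those of the other 3 lists below it. In Laminectomy against No operation it called Sptb lower and Pf4 higher, beside 24.4% and 24.2% of all genes, and no gene of the other 2 lists, of which 1 B cell precursor gene and 0 eosinophil and basophil genes had an unadjusted p below 0.05 and DESeq2 called 0. The erythroid count in SHAM against No operation was 14 without No operation 4, 12 without No operation 1, 6 without Laminectomy 1 or 4, and 1 without No operation 2, No operation 3, SHAM 1, SHAM 2 or SHAM 3. The B cell precursor count was 7 without No operation 1, 6 without No operation 4, 0 without No operation 2, SHAM 1 or SHAM 3, and 1 without No operation 3, SHAM 2 or any Laminectomy mouse. The eosinophil and basophil count was 3 without No operation 4, 2 without No operation 1, and 0 without No operation 2, No operation 3, SHAM 1, SHAM 2, SHAM 4 or Laminectomy 2. The megakaryocyte and platelet count was 5 without No operation 4 and 4 without No operation 1. In Laminectomy against No operation it was 2 without No operation 2, and the eosinophil and basophil count was 1 without Laminectomy 3. The hemoglobin and Ear genes have near-identical copies that can share reads, so their split is uncertain.

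Bone genes also moved with the members. Over 8 osteoblast and osteocyte genes the median r with Mpo was 0.88 with group means removed. Their sum ran from 18.9 to 578 CPM without operation, 2.70 to 122 CPM after SHAM surgery and 643 to 1807 CPM after Laminectomy. Ibsp, encoding bone sialoprotein, stood at 0.482, 224, 74.0 and 1.05 CPM in the unoperated mice, so both No operation mice with high granule genes also had high bone genes. In SHAM mice it was at 0.393, 96.9, 25.3 and 77.8 CPM, and in Laminectomy mice at 1499, 1375, 574 and 501 CPM. In the Laminectomy group the order differed, since mouse 1 was highest for Ibsp and mouse 3 for the members. Bglap (osteocalcin) had no count in No operation mouse 1 and SHAM mouse 1. edgeR called 2 of the 8, Alpl and Bglap2, lower in SHAM against No operation, near the 25.1% of all genes. It called 0 of the 8 in Laminectomy against No operation, where 24.2% of all genes were called higher and 24.4% lower and where 2 of the 8 had an unadjusted p below 0.05 and DESeq2 called 2. The first of these counts was 6 without No operation 1, 4 without No operation 4 or SHAM 4, and 1 without No operation 2, No operation 3, SHAM 1, SHAM 2 or SHAM 3. The second was 4 without No operation 2, 2 without SHAM 1 and 1 without Laminectomy 3 or 4. Bglap and Bglap2 are near-identical and can share reads. The part of these genes in the result for the members was not tested.

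**Figure D5:**
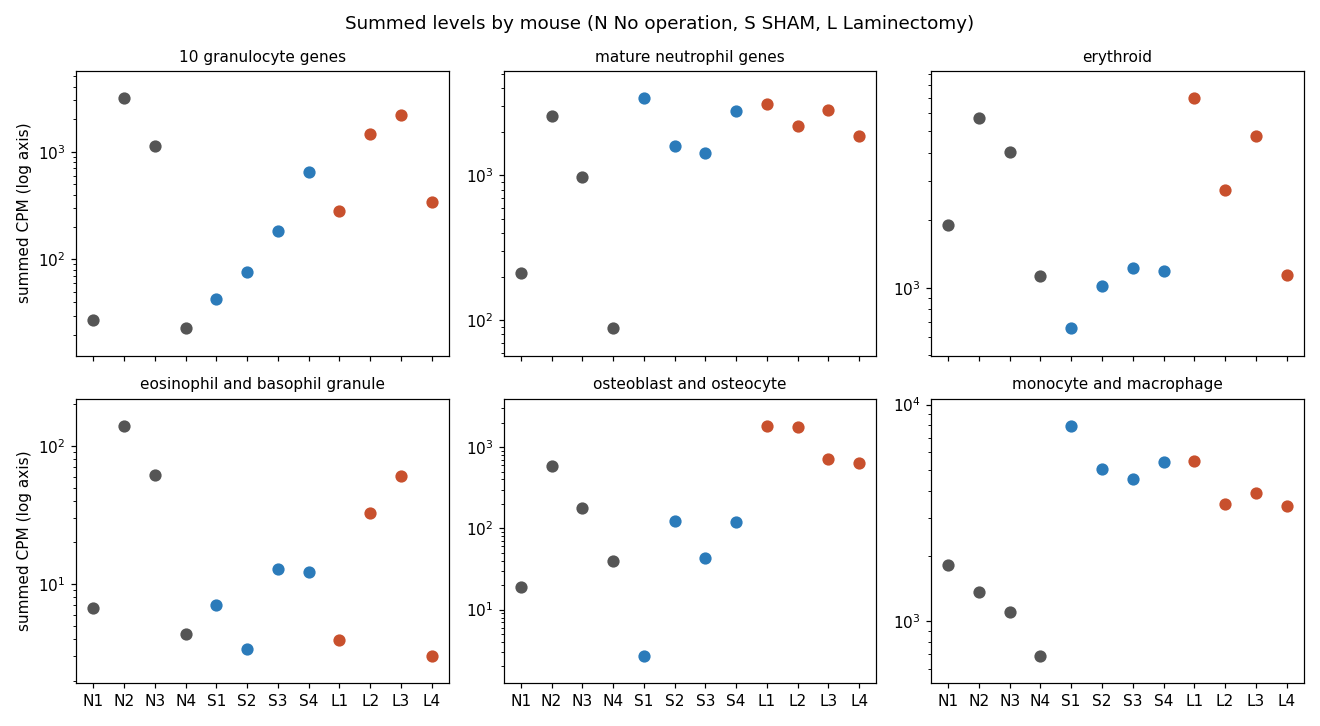
Summed CPM (log axis) of the 10 genes and of 5 marker lists in each mouse, with N for No operation, S for SHAM and L for Laminectomy. The 10 genes and the mature neutrophil, erythroid, eosinophil and basophil, and bone lists share their high No operation mice, 2 and 3. The macrophage list is above every No operation mouse in all operated mice.

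Genes of tissue macrophages followed the operation. Of 10 monocyte and macrophage genes, 9 were called higher by edgeR in SHAM against No operation, beside 25.7% of all genes, and 8 in Laminectomy against No operation, beside 24.2%. Their sum ran from 689 to 1818 CPM without operation, 4536 to 7938 CPM after SHAM surgery and 3378 to 5477 CPM after Laminectomy. The median r with Mpo was -0.39 with group means removed. Of the 4 mast cell protease genes tested, all 4 were called lower in Laminectomy against No operation, beside 24.4% of all genes, and 0 in SHAM against No operation, where 25.1% of all genes were called lower and, of the 4, 0 had an unadjusted p below 0.05 and DESeq2 called 0. Their sum ran from 38.8 to 82.2, 7.63 to 61.9 and 0.953 to 9.28 CPM in No operation, SHAM and Laminectomy mice. Mcpt2 was at 0 in all No operation and SHAM mice, and Mcpt1 in all No operation and Laminectomy mice. The 8 skeletal muscle genes were all called lower in both comparisons with No operation, beside the same 25.1% and 24.4% of all genes.

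In Laminectomy against SHAM, edgeR called no gene of any of these 11 lists. An unadjusted p below 0.05, which 16.0% of all genes had, was found for 8 of 8 osteoblast and osteocyte genes, 7 of 19 erythroid genes, 5 of 24 mature neutrophil genes, 5 of 10 monocyte and macrophage genes, 4 of 4 mast cell protease genes, 4 of 10 transcription factors, 1 of 13 immature granulocyte genes and 1 of 8 megakaryocyte and platelet genes, with 0 in the other 3 lists. DESeq2, which called 4.08% of all genes, called 5 of 19 erythroid genes, 4 of 4 mast cell protease genes, 2 of 10 monocyte and macrophage genes and 1 gene each of 8 bone, 24 mature neutrophil, 10 transcription factor and 13 immature granulocyte genes.

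The genes most like the members over the 12 mice were sought among all genes tested, by the Pearson correlation of log2 CPM with the mean standardized profile of the 10 genes. The closest were Hemgn (0.989), Ms4a3 (0.988), Rhd (0.988), Itgb2l (0.986), Btnl10 (0.986), Gfi1 (0.985), Pklr (0.984), Ctse (0.975), Myb (0.974) and Fcnb (0.974). Rhd is a red cell blood group gene of the erythroid list, and Pklr is the pyruvate kinase of red cells and liver. Ms4a3, Itgb2l, Gfi1 and Fcnb are known from the granulocyte lineage. Hemgn, Btnl10 and Ctse were on none of the marker lists, so the genes named do not give the share of each lineage. With group means removed, Hemgn (0.988), Rhd, Ms4a3, Itgb2l, Btnl10 and Gfi1 were again among the first 10. They now stood with Epb42 and Trim10 of the erythroid list, Gp5 of the megakaryocyte and platelet list, and Car2. Hemgn itself ran from 0.0562 to 38.5 CPM. For comparison, the members' own correlation with that profile over the 12 mice ran from 0.805 for Retnlg to 0.994 for Camp.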

How the data were processed

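Polyadenylated RNA of 12 mice was prepared with a stranded kit and sequenced in pairs by the submitters. Per the submitters' processing notes, reads were aligned with STAR 2.6.1b to GRCm38/mm10 and counted with featureCounts 2.0.1, with DESeq2 1.30.1 also named. The deposited values are read counts per gene, treated as estimated counts because 10.22% of the values, in 2933 genes, were not whole (0 of the 10 members), and they were rounded. How the values came to be fractional is not given in the sources used here. The study's methods give fewer mice per group than the 4 deposited, and all 12 were used.

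Counts were analysed with edgeR 4.0.16 in R 4.3.3 (filterByExpr by group, TMM factors 0.849 to 1.134, quasi-likelihood test, all 12 mice in 1 fit, Benjamini-Hochberg adjustment over 14765 genes). The common biological coefficient of variation was 28.3%. Single members were also tested by a two-sided exact permutation test of log2 CPM (prior count 2). DESeq2 1.42.0 was an alternative, beside RLE factors, plain totals, no filter, a log2 threshold of 1, only the groups compared, leaving out each mouse and a replicate block. The test was tried on simulated data, and its acceptance limits were revised after the first run. Gene coordinates and exon lengths came from GENCODE vM21. Each mouse is 1 library, and p-values measure the spread between these mice. The sex of each mouse was not used.

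The members and lists were chosen with earlier results of these data known. All 10 members were reported in every mouse. From other lists, counts of calls and up to 4 genes with the highest mean CPM were to be named. Ms4a3, Gfi1, Myb, Il1b, Cxcr2, Fpr1, Spi1, Irf8, Slc4a1, Bglap2, Orm1 and single called genes in counts of 5 or fewer were named after their values were seen.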

Additional observations from a re-analysis of the deposited data

How the results depend on the processing

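No alternative called a member in any of the 3 comparisons. The directions of single members were less stable, mainly in Laminectomy against No operation, where the fitted differences were near 0. On plain totals the log2 fold change in that comparison was 0.19 for Mpo, 0.20 for Ngp and 0.24 for Ltf. Leaving out 1 mouse gave ranges of -0.88 to 1.52 for Mpo, -0.73 to 1.62 for Elane, -0.60 to 1.46 for Prtn3, -0.60 to 1.63 for Ctsg, -0.66 to 1.39 for Ngp, -0.52 to 1.35 for Camp, -0.60 to 1.44 for Ltf, -0.84 to 1.11 for Cebpe, -0.11 to 1.90 for Retnlg and -0.28 to 1.64 for Ly6g. In SHAM against No operation the ranges that crossed 0 were -0.89 to 0.85 for Retnlg and -2.05 to 0.03 for Ly6g, and both positive values came without No operation 2. The cause was not tested beyond the mouse left out.

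Same-numbered mice did not deviate together for every number: the correlations, from -0.23 to 0.35, were above 0.1 for all pairs of numbers 1 and 3 and of mixed sign for numbers 2 and 4, so the numbers were not taken to pair the mice. With the replicate number as a block no member was called (0 in each comparison), and Laminectomy against No operation gave 1.24 for Mpo, 1.02 for Ngp, 1.03 for Ltf and 0.30 for Cebpe. The block turned Retnlg to 1.13 in SHAM against No operation and to -0.04 in Laminectomy against SHAM. For the marker lists in SHAM against No operation, DESeq2 called 12 erythroid, 4 megakaryocyte and platelet, 5 B cell precursor, 2 eosinophil and basophil and 5 bone genes, against 3, 1, 3, 1 and 2 by edgeR. Plain totals and the block each called 1 erythroid gene, plain totals and no filter 1 B cell precursor gene, and the block 0. A fit of only the 2 groups called 5 erythroid, 0 B cell precursor, 0 eosinophil and basophil and 1 bone gene, and a log2 threshold of 1 called 1 immature granulocyte gene. In Laminectomy against No operation, plain totals called 2 immature granulocyte genes and 1 bone gene, the block 1 bone gene, DESeq2 2 bone genes and the fit of only the 2 groups 6 mature neutrophil genes and 1 bone gene. Over all genes, plain totals called 5179 of 7850 higher in SHAM against No operation, against 3799 of 7502 with the scaling, and 5456 of 7803 in Laminectomy against No operation, against 3578 of 7183. At these depths, members with 1 to 3 counts in a mouse have levels known only within counting error.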
